A study of Homo sapiens with 9 samples.

Results

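The comparison described here was of gene expression between 3 libraries with a high level of DEK mRNA and 3 libraries with a low level, all 6 labelled as U937 cells with a short hairpin RNA (shRNA) against DEK. U937 is an established human myeloid leukaemia line. The study transduced it with lentiviral vectors that carried the hairpin shDEK14, the hairpin shDEK17 or no hairpin (shEMPTY), and RNA of 3 libraries per vector was hybridized to bead arrays, 9 in all. GFP-positive cells had been sorted 48 h after transduction and expanded for 4 days, so that all 9 libraries shared the sort, the vector backbone and the time in culture. The labels number the arrays of each vector as Exp1, Exp2 and Exp3, which may mark shared experiments, but do not say whether they were separate transductions, so the error behind each p-value is the spread among these arrays, part or all of which may be technical. The 6 libraries were grouped by the measured DEK signal and not by the vector, since the signal did not follow the labels. The high-DEK libraries were those labelled shDEK14 replicates 1 and 3 and shDEK17 replicate 2. The low-DEK libraries were those labelled shDEK14 replicate 2 and shDEK17 replicates 1 and 3. The 3 libraries labelled shEMPTY entered only an alternative fit with all 9 arrays, but helped decide which genes and probes were tested. They are given last, as a measurement that the grouping did not use. Per-library values below follow the order just given, on the log2 scale of the deposited array-scaled intensity, with higher values for more RNA.

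DEK is an abundant nuclear protein that binds chromatin, acts as a histone chaperone and is part of a fusion gene in a subset of acute myeloid leukaemias. Myeloid progenitors store serine proteases and peroxidase in azurophil granules, whose genes are transcribed at the promyelocyte stage and shut down as monocytes and granulocytes mature. U937 cells resemble monoblasts and express genes of both granule proteins and monocyte surface proteins.

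DEK was represented by 1 probe. Its raw intensity was 2360, 2826 and 1890 in the high-DEK libraries, against 359.4, 431.6 and 532.0 in the low-DEK libraries. The lowest high-DEK library and the highest low-DEK library differed 3.55-fold, with the boundary of 1000 in the gap between them. On the log2 scale DEK averaged 11.13 ± 0.17 in the high-DEK libraries and 8.73 ± 0.23 in the low-DEK libraries (SD, n = 3 each), which is 5.27-fold. These values chose the groups and are given with no test. In the libraries labelled shEMPTY the raw intensity was 2510 and 2580 in replicates 1 and 3 but 293.9 in replicate 2. Both hairpins thus had libraries on both sides of the gap, and the DEK level did not follow the vector label. The 3 high-DEK libraries were level with shEMPTY replicates 1 and 3. Whether samples were exchanged, or the hairpin was absent or did not act in some cultures, cannot be told apart here, and a library name below gives its label only.

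**Figure D1:**
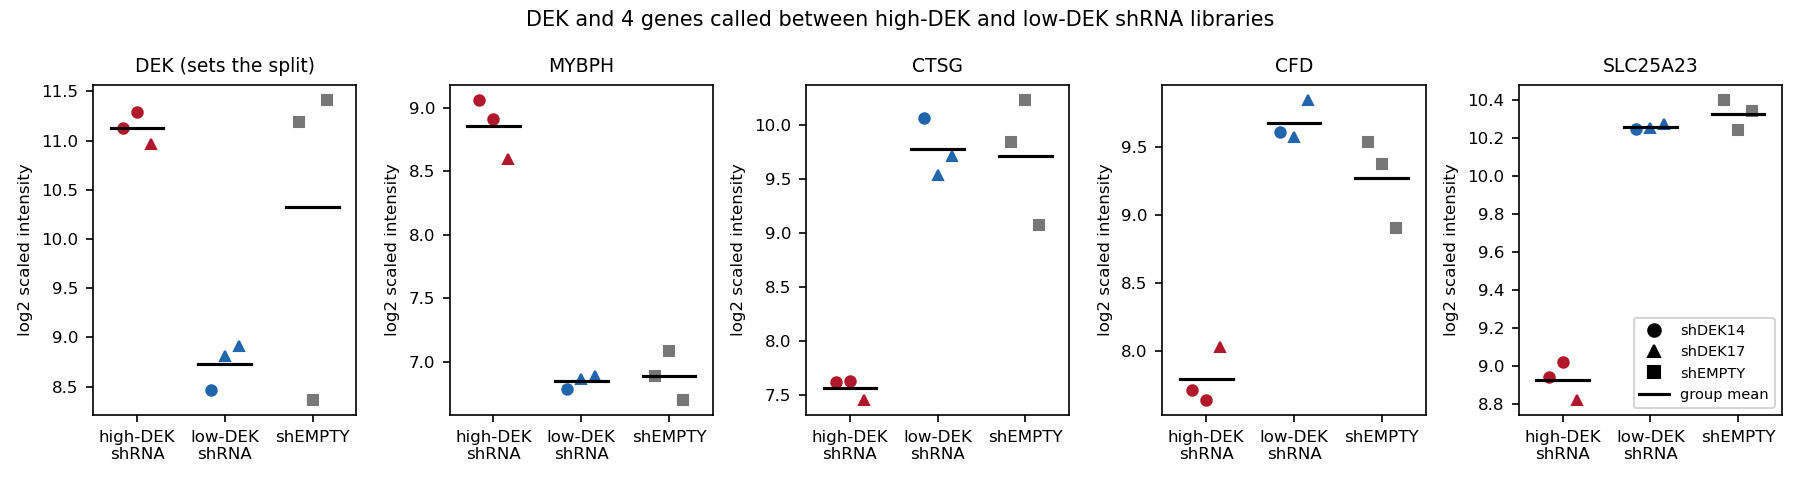
Log2 scaled intensity (vertical axes) of DEK and of 4 genes in the 3 high-DEK, 3 low-DEK and 3 shEMPTY libraries. Symbols give the vector on the label, and lines give group means. MYBPH lies at 8.60 to 9.06 in the high-DEK libraries and at 6.78 to 6.89 in the low-DEK libraries. CTSG, CFD and SLC25A23 are lower in all 3 high-DEK libraries than in all 3 low-DEK libraries, and the shEMPTY libraries lie on the low-DEK side.

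The 6 libraries were close to each other overall. On the arrays 14091, 13609 and 13275 probes were detected in the high-DEK libraries, against 13056, 12729 and 13138 in the low-DEK libraries, so that each high-DEK library had more detected probes than every low-DEK library. The part of that difference in the results was not tested. Library pairs correlated at r = 0.969 to 0.991 across probes. Of 10 myeloid identity markers 9 had a probe, among them SPI1, CEBPA, CD68 and MPO, and all 9 were detected. Of the markers of other cell types, 2 of 19 with a probe were detected for T and NK cells (NCAM1 and KLRB1), 2 of 9 for B cells (CD79A and CD79B), 3 of 21 for the erythroid and megakaryocyte lineages, 0 of 12 for epithelium and 2 of 17 for fibroblasts and endothelium. None of the detected markers of these other types was called between the groups. Their summed scaled intensities overlapped between the groups, for T and NK cells at 2131 to 2239 in the high-DEK libraries and at 2091 to 2306 in the low-DEK libraries.

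Among 8610 genes tested with limma, 86 differed at a Benjamini-Hochberg adjusted p under 0.05. Of these, 46 were higher in the high-DEK libraries (0.534% of all genes tested) and 40 were lower (0.465%). All 86 had no overlap between the 3 high-DEK and the 3 low-DEK libraries, which among all genes held for 9.54% in the upward and 8.92% in the downward direction. Called differences as measured ranged on the log2 scale between 0.58 and 2.01 for the higher genes and between -0.57 and -2.21 for the lower genes. At least 2-fold differences were found for 15 of the higher and 11 of the lower genes. The median log2 difference of all genes was 0.01. Because the groups were selected on DEK, a call says that a gene's level went with the DEK level among these 6 libraries. Leaving out any 1 library left fewer arrays to estimate the spread. Without shDEK17 replicate 1, 67 genes were called higher and 44 lower. Most calls were lost when shDEK14 replicate 1 or shDEK14 replicate 2 was left out. The differences themselves remained. Without shDEK14 replicate 1 the log2 difference was 1.21 for GPR34 and 1.03 for RNVU1-18, beside 1.13 and 1.21 with all 6 libraries. Without shDEK14 replicate 1, without shDEK14 replicate 2, or with the replicate number as a block, the called genes were MYBPH (higher) and CTSG, CFD and SLC25A23 (lower) alone, 1 and 3 genes. In bulk RNA, fewer cells of a type and less RNA per cell cannot be told apart.

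**Figure D2:**
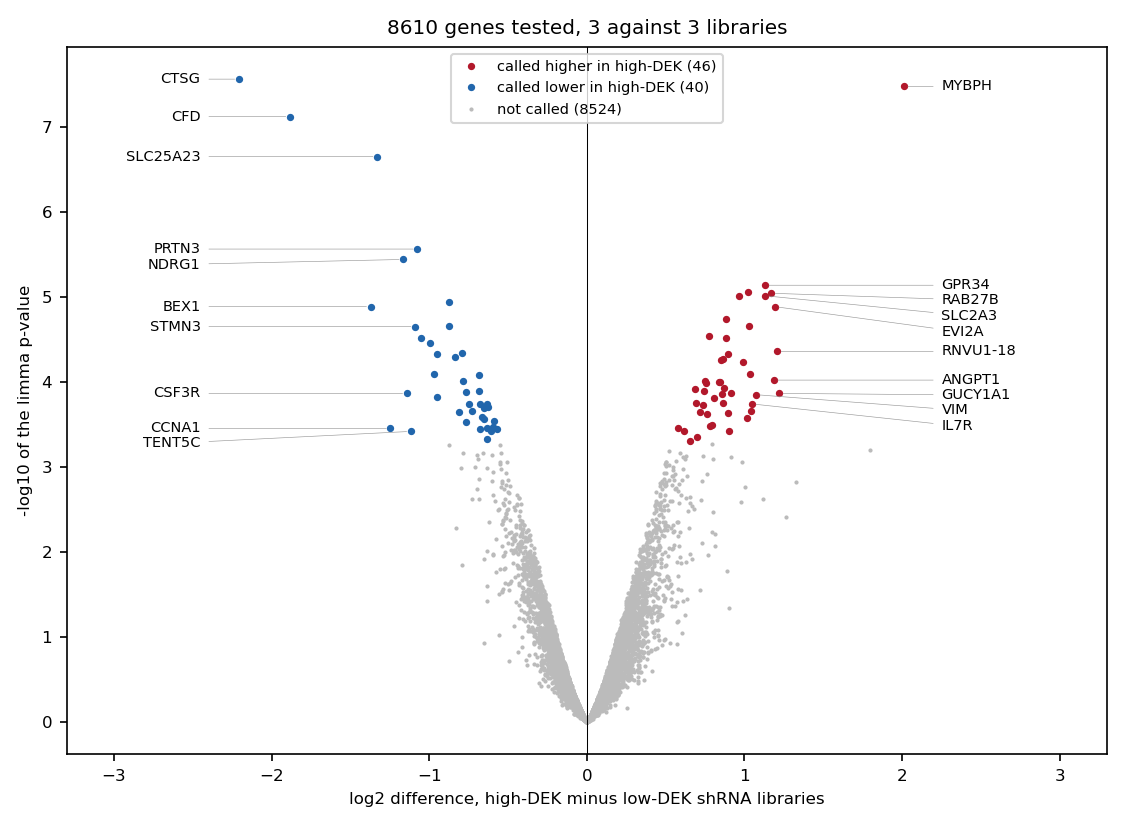
Log2 difference, high-DEK minus low-DEK libraries (horizontal axis), against -log10 of the limma p-value (vertical axis) for the 8610 genes tested. Red points are the 46 genes called higher and blue points the 40 called lower, and the 10 of largest difference in each direction are named. MYBPH stands apart on the right, and CTSG, CFD and SLC25A23 on the left.

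MYBPH, which encodes a myosin-binding protein of skeletal muscle thick filaments, had the largest measured increase. Its log2 intensity was 9.06, 8.91 and 8.60 in the high-DEK libraries, against 6.78, 6.86 and 6.89 in the low-DEK libraries. The shEMPTY libraries had 6.89, 7.08 and 6.70, next to the low-DEK values. MYBPH was detected in the 3 high-DEK libraries and in no low-DEK or shEMPTY library, so it passed the detection filter only through the group where it was high. It was at least 3.12-fold higher in the high-DEK libraries (adjusted p = 0.00014, limma), a bound set against the lowest intensity among detected probes of each array. It was also called with no detection filter. Of the striated muscle list, 4 of 33 genes with a probe were detected, and MYBPH was the only one called. The others had log2 differences of -0.16 for TPM1, 0.15 for MYL2 and 0.14 for TNNT1 (adjusted p = 0.60, 0.69 and 0.78, limma). Of the 33 genes 27 were detected on no array. The summed scaled intensity of the 33 was 4150 to 4294 in the high-DEK libraries and 3789 to 4045 in the low-DEK libraries, with MYBPH in the sum.

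The proximal promoters of MYBPH and of 3 granule genes described next are shown because MYBPH had the largest increase and CTSG, CFD and PRTN3 the largest decreases among granule genes. Each sequence is the 250 bases before the gene start in RefSeq (GRCh38.p14), and capitals mark matches to GAGGAA, the core bound by the myeloid factor PU.1, or to its reverse complement. The windows are chr1:203175827-203176076 (minus strand) for MYBPH, chr14:24576251-24576500 (minus strand) for CTSG, chr19:840749-840998 (plus strand) for PRTN3 and chr19:859414-859663 (plus strand) for CFD.
MYBPH: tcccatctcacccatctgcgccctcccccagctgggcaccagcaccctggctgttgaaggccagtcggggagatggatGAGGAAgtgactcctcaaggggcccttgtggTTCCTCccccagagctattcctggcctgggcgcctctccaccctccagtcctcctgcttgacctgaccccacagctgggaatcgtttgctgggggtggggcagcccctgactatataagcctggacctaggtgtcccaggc
CTSG: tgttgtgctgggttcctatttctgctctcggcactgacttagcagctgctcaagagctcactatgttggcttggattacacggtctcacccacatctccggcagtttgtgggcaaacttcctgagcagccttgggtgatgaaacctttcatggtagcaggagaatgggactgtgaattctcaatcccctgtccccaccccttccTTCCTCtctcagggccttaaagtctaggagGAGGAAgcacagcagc
PRTN3: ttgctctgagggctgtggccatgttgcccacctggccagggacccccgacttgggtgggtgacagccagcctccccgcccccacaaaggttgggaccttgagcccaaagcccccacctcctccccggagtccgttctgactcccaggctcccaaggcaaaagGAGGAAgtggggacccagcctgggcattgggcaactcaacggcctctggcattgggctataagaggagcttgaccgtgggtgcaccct
CFD: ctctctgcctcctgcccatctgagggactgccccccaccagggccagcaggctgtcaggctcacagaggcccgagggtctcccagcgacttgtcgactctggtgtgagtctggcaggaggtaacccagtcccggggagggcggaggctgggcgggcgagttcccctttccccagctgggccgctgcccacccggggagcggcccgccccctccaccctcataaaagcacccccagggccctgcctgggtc
MYBPH held matches at positions -172 and -141 and CTSG at -46 and -16, counted from the gene start. PRTN3 held 1 match, at -88, and CFD held none. CTSG and PRTN3 were the 2 with a match among 11 tested granule genes with a window (18.2%). Of 7105 genes tested with a window, 22.7% held the motif, and of all 27305 windows of this length in RefSeq 23.4%. Among called genes it was in 12 of 31 higher genes with a window (38.7%) and in 5 of 31 lower genes (16.1%). The RUNX motif TGTGGT was in 7.80% of the windows of tested genes and 11% of all windows, in 4 of 31 higher genes and in 0 of 31 lower genes, and in MYBPH it ended on the first base of the second PU.1 match. The C/EBP motif TTNNGNAA was in 23.4% of the windows of tested genes and 33.8% of all windows, in 15 of 31 higher genes (48.4%) and in 10 of 31 lower genes (32.3%), and the AP-1 motif TGANTCA was in 3.73%, 6.74%, 3 of 31 and 0 of 31 of the same sets. Both strands were searched. A match describes letters in the window and is not a measured binding site.

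Granule protein genes were lower in the high-DEK libraries. Of 29 listed genes 15 were tested, and 6 of them fell (CTSG, CFD, PRTN3, SRGN, MPO and MS4A3) while 0 rose, beside 0.465% of all genes called lower. In all, 13 of the 15 had a negative difference and 11 had no overlap in the downward direction, beside 8.92% of all genes without such overlap. The median log2 difference of the 15 was -0.57, beside 0.01 for all genes. These counts hold PRTN3, MS4A3, ELANE, PRSS57 and AZU1, which were detected in no high-DEK library. They passed the detection filter only through low-DEK and shEMPTY libraries. With detection required on 3 of the 6 arrays 5 granule genes were called lower, and with detection on all 9 arrays 4. Only CTSG and CFD of them were called without shDEK14 replicate 1 or 2 or with the replicate block. The list was drawn up with earlier results of these libraries known and is not independent evidence of direction.

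CTSG encodes cathepsin G, a serine protease of azurophil granules. Its log2 intensity was 7.62, 7.63 and 7.46 in the high-DEK libraries, against 10.07, 9.54 and 9.72 in the low-DEK libraries, which do not overlap. It fell by 2.21 ± 0.15 on the log2 scale (SE; adjusted p = 0.00014, limma), to 0.216 of the low-DEK level. CFD encodes complement factor D, the protease that starts the alternative complement pathway and is stored by myeloid cells. It had 7.71, 7.64 and 8.03 in the high-DEK libraries, against 9.61, 9.57 and 9.85 in the low-DEK libraries. CFD fell by 1.88 ± 0.14 (SE; adjusted p = 0.00022, limma). The shEMPTY libraries had 9.84, 10.24 and 9.08 for CTSG and 9.53, 9.37 and 8.90 for CFD, on the low-DEK side for both genes although shEMPTY replicates 1 and 3 had a high DEK signal.

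PRTN3, which encodes proteinase 3, had 6.61, 6.64 and 6.74 in the high-DEK libraries, against 7.80, 7.60 and 7.83 in the low-DEK libraries. It was not detected in any high-DEK library, passed the filter mainly through the low-DEK libraries and was at least 1.51-fold lower in the high-DEK libraries (adjusted p = 0.0047, limma). MPO, myeloperoxidase, was among the brighter genes, with 11.96, 12.05 and 11.84 in the high-DEK libraries against 12.85, 12.63 and 12.74 in the low-DEK libraries. SRGN, the proteoglycan serglycin that packs granule proteases, had 11.20, 11.08 and 11.35 in the high-DEK libraries against 12.40, 11.86 and 12.29 in the low-DEK libraries. MPO fell by 0.79 ± 0.12 (SE; adjusted p = 0.016, limma) and SRGN by 0.97 ± 0.15 (SE; adjusted p = 0.022, limma). MS4A3, a membrane protein of granulocyte and monocyte precursors, was not detected in any high-DEK library and was close to background in the low-DEK libraries, at 7.26 to 7.29. It was at least 1.09-fold lower in the high-DEK libraries (adjusted p = 0.039, limma).

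The other granule genes did not pass. SERPINB1, an inhibitor of granule proteases, had a log2 difference of -0.69 (adjusted p = 0.068), RNASE2, the eosinophil-derived neurotoxin, -0.83 (adjusted p = 0.17), AZU1, azurocidin, -0.55 (adjusted p = 0.25), ELANE, neutrophil elastase, -0.42 (adjusted p = 0.15) and PRSS57 -0.38 (adjusted p = 0.22), all by limma and all without overlap. ELANE, PRSS57 and AZU1 were not detected in any high-DEK library. In contrast, CTSC, the protease that activates granule proteases, had -0.07, CALR -0.02, NKG7 0.21 and LYZ, lysozyme, 0.27, all with overlapping libraries. AZU1, PRTN3, ELANE and CFD are consecutive protein-coding genes on chromosome 19 in RefSeq, and all 4 had every high-DEK library below every low-DEK library. Their tested neighbours on either side, PTBP1 with -0.15 and MED16 with -0.09, overlapped. Whether their shared position plays a part was not tested.

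**Figure D3:**
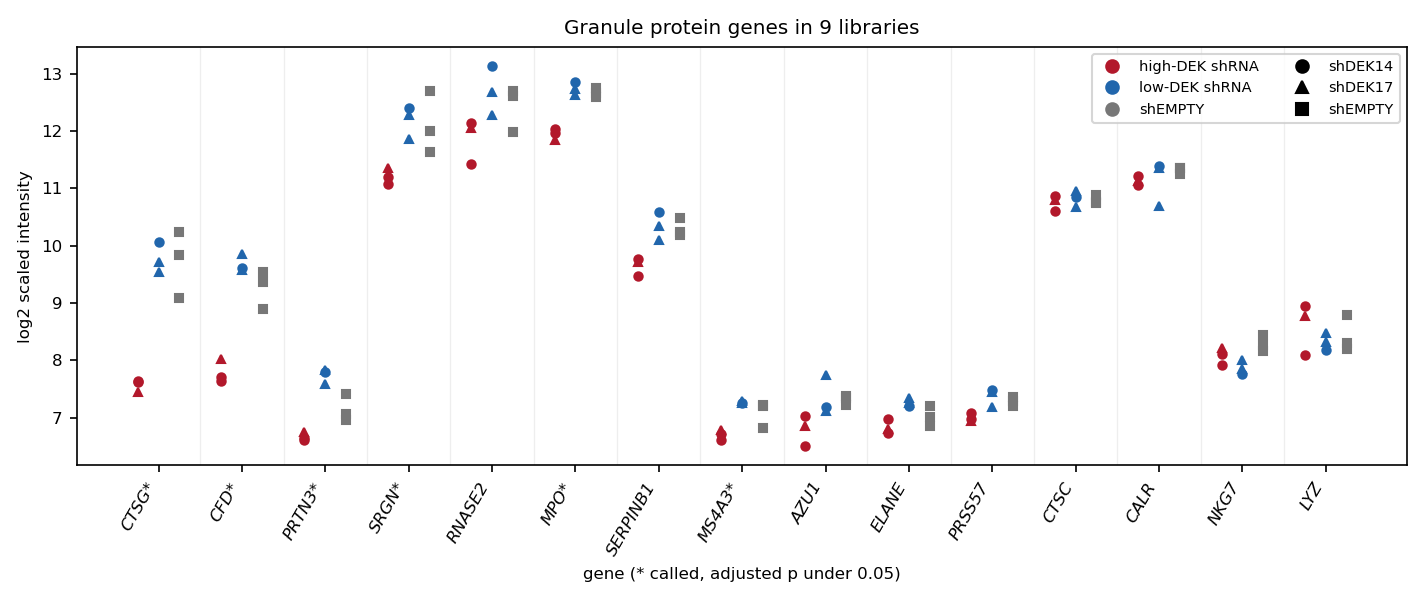
Log2 scaled intensity (vertical axis) of the 15 granule protein genes tested, ordered by log2 difference, in the high-DEK (red), low-DEK (blue) and shEMPTY (grey) libraries. Symbols give the vector on the label, and asterisks mark the 6 genes called. From CTSG to PRSS57 every red point lies below every blue point, and the 4 genes on the right overlap.

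None of the genes of mature monocytes and macrophages was called. Of 22 tested surface and effector genes, 16 had a positive difference and 9 had no overlap in the upward direction, beside 52.6% and 9.54% of all genes, and the median was 0.31. CD300A, an inhibitory receptor, had 8.27, 7.77 and 8.18 in the high-DEK libraries against 7.02, 6.89 and 7.57 in the low-DEK libraries (log2 difference 0.91, adjusted p = 0.065). ITGB2, the beta chain of leukocyte integrins, had 13.28, 13.23 and 13.48 in the high-DEK libraries against 12.69, 12.54 and 12.91 in the low-DEK libraries (0.62, adjusted p = 0.067). Of 10 S100 and phagocyte oxidase genes 0 were called and 9 were above zero. NCF1, the p47phox subunit of the oxidase, had the largest positive log2 difference after MYBPH, 1.80 ± 0.37 (SE), with 10.11, 9.43 and 10.58 in the high-DEK libraries and 8.10, 7.52 and 9.10 in the low-DEK libraries. Its libraries did not overlap, but the spread within both groups was wide (SD 0.58 and 0.80) and the adjusted p was 0.061 (limma). NCF1 has near-identical pseudogenes whose RNA the probe may also read, and the gene with the next largest difference, 1.33, was 1 of them, NCF1C.

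Among 14 receptors for myeloid growth factors and cytokines, 1 rose and 1 fell. CSF3R, the receptor of granulocyte colony-stimulating factor, had 8.43, 8.98 and 9.004 in the high-DEK libraries against 9.99, 9.61 and 10.24 in the low-DEK libraries. It fell by 1.14 ± 0.19 (SE; adjusted p = 0.025, limma). IFNGR1, the ligand-binding chain of the interferon gamma receptor, had 10.42, 10.46 and 10.17 in the high-DEK libraries against 9.28, 9.85 and 9.20 in the low-DEK libraries. It rose by 0.90 ± 0.17 (SE; adjusted p = 0.040, limma). Of the 14 receptors 11 were above zero and the median was 0.27, while CSF3R was 1 of 3 below zero. Of 30 myeloid transcription factors tested 0 were called, with 15 above and 15 below zero. ID3, a repressor of basic helix-loop-helix factors, was at 0.50 (adjusted p = 0.092, limma). It was detected in no low-DEK or shEMPTY library and passed the filter only through the group where it was high. NFE2 was at -0.52 (adjusted p = 0.12, limma), was not detected in any high-DEK library and passed the filter mainly through the low-DEK libraries.

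Receptors that signal through G proteins gave 3 calls among 18 tested, all upward, beside 0.534% of all genes called higher. GPR34, a receptor for lysophosphatidylserine, had 7.85, 8.28 and 7.93 in the high-DEK libraries against 6.86, 6.98 and 6.84 in the low-DEK libraries, where it was not detected. Detected in no shEMPTY library either, it passed the filter only through the group where it was high. It was at least 1.75-fold higher (adjusted p = 0.0077, limma). GPR65, which senses extracellular protons, had 8.30, 7.95 and 7.89 in the high-DEK libraries against 7.22, 7.14 and 7.09 in the low-DEK libraries. PTGER4, the prostaglandin E2 receptor EP4, had 9.46, 9.43 and 9.46 in the high-DEK libraries against 8.58, 8.73 and 8.73 in the low-DEK libraries, so that both groups were tight and clearly apart. GPR65 rose by 0.90 (adjusted p = 0.016) and PTGER4 by 0.77 (adjusted p = 0.013, both limma), and both couple to cyclic AMP formation. The remaining 15 receptors were spread around zero, and the list median was 0.10.

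Of 15 genes of cyclic nucleotide signalling 1 was called. GUCY1A1, the alpha subunit of the nitric oxide-sensitive guanylate cyclase, had 8.06, 8.36 and 7.47 in the high-DEK libraries against 6.77, 6.92 and 6.55 in the low-DEK libraries, where it was not detected. It too was detected in no shEMPTY library and passed the filter only through the group where it was high. It was at least 1.68-fold higher (adjusted p = 0.025, limma). The spread among the high-DEK libraries was the widest of the 46 genes called higher (SD 0.45). PRKAR1A, a regulatory subunit of protein kinase A, was at 0.55 (adjusted p = 0.091) and the phosphodiesterase PDE4B at -0.53 (adjusted p = 0.12).

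FOS, the AP-1 subunit induced as an immediate early gene, had 7.71, 7.92 and 7.71 in the high-DEK libraries against 6.79, 6.89 and 6.59 in the low-DEK libraries, where it was not detected. The shEMPTY libraries had 6.90, 7.25 and 7.15, and it was detected in 1 of them. The gene thus passed the detection filter only through the group where it was high. FOS was at least 1.48-fold higher in the high-DEK libraries (adjusted p = 0.0077, limma). FOS was the 1 called gene of 23 AP-1 and immediate early genes tested, beside 0.534% of all genes called higher. Of the 23, 17 were above zero and 9 had no overlap in the upward direction, beside 52.6% and 9.54% of all genes, and the median was 0.20. JUN, its partner, was at 0.22 (adjusted p = 0.47) and did not overlap, with 7.73, 7.68 and 7.80 in the high-DEK libraries and 7.60, 7.57 and 7.41 in the low-DEK libraries. EGR1, induced by the same stimuli, was high in 1 library of each group, with 7.53, 9.87 and 7.52 in the high-DEK libraries, 7.51, 9.26 and 7.39 in the low-DEK libraries and 7.46, 7.54 and 9.98 in the shEMPTY libraries (0.25, adjusted p = 0.91).

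Of the 34 short noncoding RNA genes listed 19 were tested, 3 rose (RNU1-1, SCARNA13 and SNORD3A) and 0 fell, beside 0.534% of all genes called higher. Of the 19, 7 had no overlap in the upward direction, beside 9.54% of all genes, and the median was 0.17. RNU1-1 encodes U1, the small nuclear RNA that recognizes the 5' splice site. It had 10.18, 10.45 and 9.80 in the high-DEK libraries against 8.96, 9.16 and 9.22 in the low-DEK libraries, a difference of 1.03 ± 0.16 (SE; adjusted p = 0.022, limma). Variant U1 gene RNVU1-18 had 10.20, 9.92 and 9.44 in the high-DEK libraries against 8.71, 8.54 and 8.69 in the low-DEK libraries, and RNU1-3 had 9.96, 9.64 and 9.31 in the high-DEK libraries against 8.88, 8.32 and 8.59 in the low-DEK libraries. RNVU1-18 rose by 1.21 (adjusted p = 0.016) and RNU1-3 by 1.04 (adjusted p = 0.031, both limma). The U1 genes are near-identical copies, so their probes may read the same RNA and are not separate observations. The paper names the RNeasy Mini Kit for RNA isolation. How far isolation and array labelling retained such short RNAs was not tested, so the values here and below are probe signals.

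SCARNA13, a small Cajal body RNA, had 8.54, 8.45 and 8.16 in the high-DEK libraries against 7.49, 7.30 and 7.76 in the low-DEK libraries, and rose by 0.86 (adjusted p = 0.0275, limma). SNORD3A, the U3 RNA of pre-ribosomal RNA processing, had 8.74, 8.98 and 8.60 in the high-DEK libraries against 7.94, 7.80 and 8.23 in the low-DEK libraries, and rose by 0.78 (adjusted p = 0.039, limma). RN7SK, which holds the elongation factor P-TEFb in an inactive complex, had 9.70, 9.70 and 9.33 in the high-DEK libraries against 8.63, 8.87 and 8.70 in the low-DEK libraries, and rose by 0.84 ± 0.14 (SE; adjusted p = 0.023, limma). A second RN7SK probe gave 1.22. RN7SK was the 1 called gene of 14 in its list, whose median, with RN7SK included, was 0.04.

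Grouped by RefSeq gene type, which was done after the values were seen, 8 of the 46 higher genes were short noncoding RNAs, with RNVU1-7 and RNA5S9 added to those above, and 0 of the 40 lower genes were. These 8 were of 100 such genes tested, among 8610 genes in all, and 64 of the 100 were above zero, beside 52.6% of all genes. Of 12 small nuclear RNA genes tested, 11 were above zero and 5 were called, with a median of 0.70. The called ones were RN7SK and the U1 genes RNU1-1, RNU1-3, RNVU1-18 and RNVU1-7. Since the U1 probes may read the same RNA, these counts and the median are not of separate observations. The remaining ones were not uniform. RNU4-1, not detected in any low-DEK library, was at 0.76 (adjusted p = 0.082) and RNU4-2 at 0.64 (adjusted p = 0.13), while RNU6-1 at 0.17 and RNU11 at 0.08 had overlapping libraries. Of 64 small nucleolar RNA genes 44 were above zero and 1 was called, with a median of 0.10. RN7SL1, the RNA of the signal recognition particle, was bright in every library, with 14.04, 14.17 and 14.15 in the high-DEK libraries and 14.13, 14.12 and 14.23 in the low-DEK libraries. None of the short RNAs was called without shDEK14 replicate 1 or without shDEK14 replicate 2. The part of the higher number of detected probes, or of RNA recovery, in these signals was not tested.

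**Figure D4:**
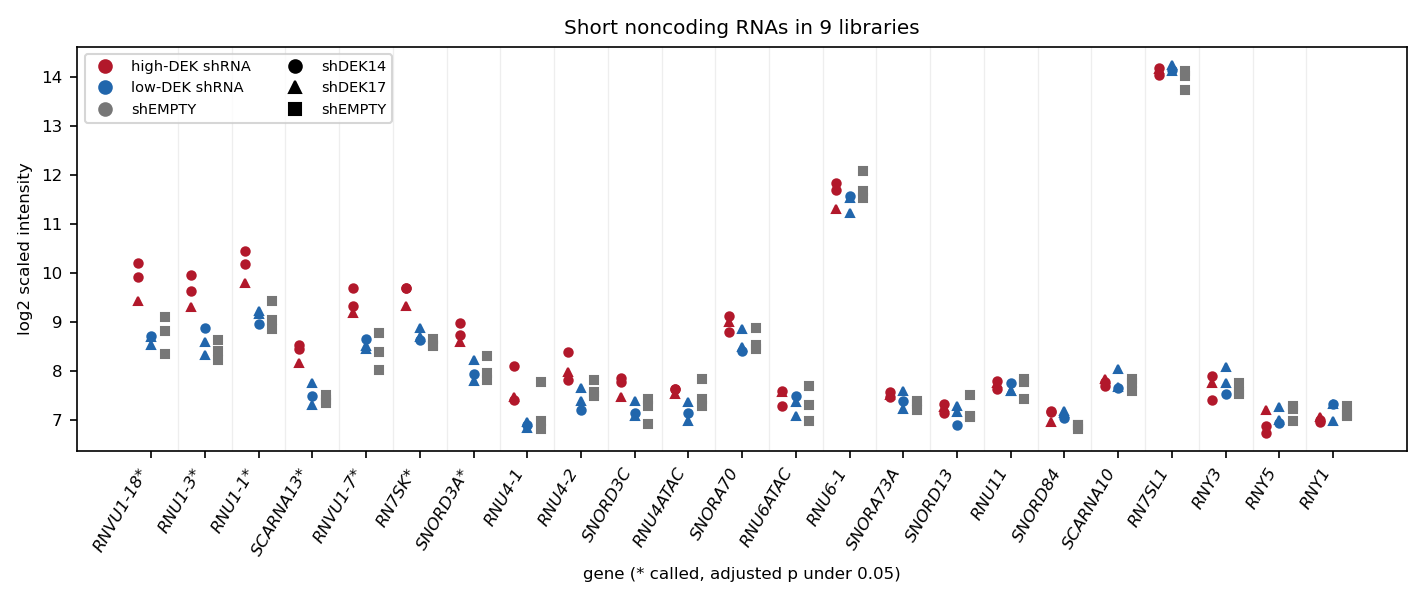
Log2 scaled intensity (vertical axis) of short noncoding RNA genes, ordered by log2 difference, in the high-DEK (red), low-DEK (blue) and shEMPTY (grey) libraries. Symbols give the vector on the label, and asterisks mark genes called. U1 genes, SCARNA13, RN7SK and SNORD3A are higher in all 3 high-DEK libraries, and RNU6-1 and RN7SL1 are not.

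SLC25A23, which exchanges ATP-Mg for phosphate across the inner mitochondrial membrane in response to calcium, was tightly separated. It had 8.95, 9.02 and 8.82 in the high-DEK libraries against 10.25, 10.25 and 10.27 in the low-DEK libraries and 10.41, 10.24 and 10.35 in the shEMPTY libraries. It fell by 1.33 ± 0.11 (SE; adjusted p = 0.00048, limma). It was the 1 called gene of 46 mitochondrial carriers and import factors, whose median was 0.02. Of 68 respiratory chain and ATP synthase genes 0 were called. NDUFS3 of complex I was at -0.40 (adjusted p = 0.17) and COX6B1 of complex IV at -0.42 (adjusted p = 0.18).

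Glycolysis and hypoxia genes gave 1 call in each direction. SLC2A3, the high-affinity glucose transporter GLUT3, had 10.71, 10.52 and 10.57 in the high-DEK libraries against 9.29, 9.38 and 9.75 in the low-DEK libraries, and rose by 1.13 ± 0.14 (SE; adjusted p = 0.0077, limma). NDRG1, a stress- and hypoxia-responsive gene, had 8.45, 8.44 and 8.23 in the high-DEK libraries against 9.56, 9.70 and 9.35 in the low-DEK libraries, and fell by 1.17 ± 0.13 (SE; adjusted p = 0.0052, limma). The other 27 of 29 tested were not called and the median was -0.02. For SLC2A3 the shEMPTY libraries, at 10.41, 10.08 and 10.09, lay between the groups, and for NDRG1, at 9.39, 9.68 and 9.15, they lay among or below the low-DEK libraries.

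Several of the largest increases belonged to no list. RAB27B, a GTPase of secretory vesicle docking, had 10.64, 10.50 and 10.58 in the high-DEK libraries against 9.23, 9.27 and 9.71 in the low-DEK libraries. EVI2A, a membrane protein gene within an intron of NF1, had 9.74, 9.53 and 9.37 in the high-DEK libraries against 8.35, 8.60 and 8.10 in the low-DEK libraries. ANGPT1, a ligand of the receptor TIE2, had 9.44, 9.08 and 9.43 in the high-DEK libraries against 7.81, 8.01 and 8.58 in the low-DEK libraries. RAB27B rose by 1.17 (adjusted p = 0.0077), EVI2A by 1.19 (adjusted p = 0.0080) and ANGPT1 by 1.19 (adjusted p = 0.023, all limma). A second probe gave 1.16 for ANGPT1 but only 0.32 for EVI2A. VIM, the intermediate filament vimentin, had 10.28, 10.58 and 10.35 in the high-DEK libraries against 9.24, 9.75 and 9.004 in the low-DEK libraries, and IL7R, the interleukin 7 receptor, 9.61, 9.08 and 9.88 in the high-DEK libraries against 8.50, 8.36 and 8.57 in the low-DEK libraries. VIM rose by 1.07 and IL7R by 1.05 (adjusted p = 0.025 and 0.0275, limma).

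The largest decreases outside the granule genes were of mixed function. BEX1, an adaptor protein of signalling and transcription, was bright in both groups, with 10.92, 10.63 and 11.02 in the high-DEK libraries against 12.55, 11.87 and 12.27 in the low-DEK libraries, and fell by 1.37 ± 0.18 (SE; adjusted p = 0.0080, limma). STMN3, a microtubule-destabilizing stathmin, had 9.78, 9.76 and 9.49 in the high-DEK libraries against 10.94, 10.48 and 10.87 in the low-DEK libraries. RCC2, a regulator of chromosome segregation, had 10.98, 11.21 and 11.25 in the high-DEK libraries against 12.03, 12.001 and 12.41 in the low-DEK libraries. STMN3 fell by 1.09 (adjusted p = 0.011) and RCC2 by 0.99 (adjusted p = 0.014, both limma). CCNA1, cyclin A1 of germ cells and myeloid leukaemia, had 8.38, 8.63 and 8.10 in the high-DEK libraries against 9.90, 9.94 and 9.002 in the low-DEK libraries. TENT5C, a poly(A) polymerase, had 7.58, 7.76 and 7.55 in the high-DEK libraries against 8.80, 9.22 and 8.21 in the low-DEK libraries. In both genes shDEK17 replicate 3 was the lowest of the low-DEK libraries, with an SD over the group of 0.53 and 0.51, and both passed narrowly (adjusted p = 0.039 and 0.040, limma; log2 differences -1.25 and -1.12). TARP, transcribed within the T cell receptor gamma locus, had 6.99, 6.76 and 6.98 in the high-DEK libraries, where it was not detected, against 8.04, 7.67 and 8.18 in the low-DEK libraries. It was at least 1.76-fold lower (adjusted p = 0.013, limma).

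Further genes called higher were named after their values were seen. VSIR, an inhibitory ligand of the B7 family, had 10.30, 10.05 and 10.27 in the high-DEK libraries against 9.25, 8.77 and 9.57 in the low-DEK libraries. CD48, a ligand of the SLAM receptor family, had 9.49, 9.36 and 9.59 in the high-DEK libraries against 8.22, 8.46 and 8.78 in the low-DEK libraries, but 9.62 in shEMPTY replicate 2, beside 8.43 and 8.45 in the others. CD53, a leukocyte tetraspanin, had 8.83, 8.44 and 8.44 in the high-DEK libraries against 7.40, 7.70 and 7.92 in the low-DEK libraries. VSIR rose by 1.01, CD48 by 0.99 and CD53 by 0.90 (adjusted p = 0.034, 0.017 and 0.031, limma). MILR1, an inhibitory receptor of mast cells, rose by 0.75 (adjusted p = 0.023), and FCGR1BP, a pseudogene close in sequence to the IgG receptor gene FCGR1A, by 0.77 (adjusted p = 0.031, limma).

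Other genes called higher, chosen after their values were seen and from no fixed list, were the following. SGK1, a serum- and glucocorticoid-regulated kinase, had 9.44, 9.44 and 9.48 in the high-DEK libraries against 8.51, 8.41 and 8.78 in the low-DEK libraries, and its 2 other probes gave 0.80 and 0.71 beside its 0.88. STX3, a syntaxin of granule and plasma membrane fusion, had 9.33, 9.42 and 9.27 in the high-DEK libraries against 8.56, 8.51 and 8.30 in the low-DEK libraries. ANXA1, the phospholipid-binding annexin A1, had 10.60, 10.14 and 10.21 in the high-DEK libraries against 9.49, 9.54 and 9.30 in the low-DEK libraries. HBEGF, a ligand of the EGF receptor, had 8.85, 8.54 and 8.22 in the high-DEK libraries against 7.58, 7.67 and 7.61 in the low-DEK libraries. SGK1 rose by 0.88 and STX3 by 0.89 (adjusted p = 0.013 and 0.0105, limma), and ANXA1 by 0.87 and HBEGF by 0.92 (adjusted p = 0.025 for both, limma). The adaptor GRB2 rose by 0.74 (adjusted p = 0.028, limma) and SNX10, a sorting nexin of endosomes, by 0.70 (adjusted p = 0.045, limma).

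Of transcriptional regulators, TCF4, a basic helix-loop-helix factor, had 10.003, 10.04 and 9.78 in the high-DEK libraries against 8.99, 9.27 and 9.01 in the low-DEK libraries and rose by 0.85 (adjusted p = 0.016, limma). HLX, a homeobox factor of blood cells, had 8.62, 8.44 and 8.14 in the high-DEK libraries against 7.63, 7.53 and 7.53 in the low-DEK libraries and rose by 0.84 (adjusted p = 0.023, limma). IDH1, the cytosolic isocitrate dehydrogenase, had 11.65, 11.38 and 11.19 in the high-DEK libraries against 10.66, 10.66 and 10.49 in the low-DEK libraries, rising by 0.80 (adjusted p = 0.026, limma), and its second probe gave 0.94. For TCF4 and IDH1 the shEMPTY libraries lay between the groups or among either of them, at 9.83, 9.21 and 9.76 for TCF4 and 10.86, 11.04 and 11.25 for IDH1. RCBTB2 rose by 1.03 and OGFRL1 by 0.97 (adjusted p = 0.011 and 0.0077, limma). The other higher calls, between 0.62 and 0.86, were LBR, the lamin B receptor, TRIM71, UHMK1, DYNLT3, MCTP1, EFCAB14, SP110 and the pseudogene TMED10P1. TMED10P1 had 11.20, 11.24 and 11.30 in the high-DEK libraries against 10.48, 10.14 and 10.53 in the low-DEK libraries, and with 11.48, 11.48 and 11.40 the shEMPTY libraries were above both groups.

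Further lower genes were named in the same way. ALDH5A1, the mitochondrial succinate semialdehyde dehydrogenase, had 8.30, 8.35 and 8.22 in the high-DEK libraries against 9.13, 9.03 and 9.32 in the low-DEK libraries, and fell by 0.87 (adjusted p = 0.011, limma). P4HB, the protein disulfide isomerase of the endoplasmic reticulum, had 10.78, 10.97 and 11.18 in the high-DEK libraries against 11.76, 11.59 and 11.75 in the low-DEK libraries, and fell by 0.73 (adjusted p = 0.031, limma). GUSB, the lysosomal beta-glucuronidase, had 9.47, 9.25 and 9.38 in the high-DEK libraries against 10.01, 9.98 and 10.02 in the low-DEK libraries, and fell by 0.64 (adjusted p = 0.0275, limma). NAPRT of NAD synthesis fell by 0.75, UGDH, which makes UDP-glucuronate, by 0.68, AKR7A2, an aldehyde reductase, by 0.65, SLC37A4, the glucose-6-phosphate transporter, by 0.59 and GALK1, galactokinase, by 0.59 (adjusted p between 0.025 and 0.039, limma).

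Other lower genes were TENT5A, a poly(A) polymerase related to TENT5C, ISY1 of the spliceosome, NXF3 and NXT2 of the mRNA export factor family and CSTF3, a subunit of the cleavage stimulation factor. TENT5A had 10.46, 10.45 and 10.29 in the high-DEK libraries against 11.55, 11.54 and 10.97 in the low-DEK libraries. ISY1 had 9.03, 8.98 and 9.21 in the high-DEK libraries against 10.22, 9.76 and 10.09 in the low-DEK libraries. NXF3 had 7.56, 7.46 and 7.42 in the high-DEK libraries against 8.35, 8.28 and 8.44 in the low-DEK libraries. TENT5A fell by 0.95, ISY1 by 0.95 and NXF3 by 0.88 (adjusted p = 0.026, 0.016 and 0.0080, limma), and CSTF3 by 0.81 and NXT2 by 0.61 (adjusted p = 0.031 and 0.040, limma). The other lower calls, between -0.63 and -0.84, were IGFBP7, COA1, PPP2R2B, AUH, PAQR4, ZDHHC4, SNAP23, CANT1, ARRB1, MT1H and ACADVL. IGFBP7, a secreted insulin-like growth factor binding protein, had 8.67, 8.62 and 8.32 in the high-DEK libraries against 9.34, 9.43 and 9.36 in the low-DEK libraries. MT1H is 1 of several closely related metallothionein genes that its probe may also read.

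Genes of chromatin, where DEK acts, are given beside 0.534% of all genes called higher and 0.465% called lower. At these shares lists of this size may hold no call. Of 43 histone-modifying enzymes 1 rose, KAT2B, the acetyltransferase PCAF, with 9.06, 9.09 and 9.22 in the high-DEK libraries against 8.56, 8.60 and 8.47 in the low-DEK libraries (log2 difference 0.58, adjusted p = 0.039, limma). The KAT2B call was lost in 13 alternative fits, among them those with median centring, quantile normalization or background correction. Of 7 HOXA and TALE homeobox genes 1 fell, PBX3, a cofactor of HOX proteins, with 8.36, 8.32 and 8.47 in the high-DEK libraries against 8.995, 8.90 and 9.29 in the low-DEK libraries (-0.68, adjusted p = 0.039, limma). Its relative PBX2 was at -0.70 (adjusted p = 0.064). None of 43 histone chaperones, DEK partners and architectural proteins was called. SSRP1, a subunit of the chaperone FACT, was at -0.51 without overlap (adjusted p = 0.081). None of 31 histone genes was called, and their median was -0.0029.

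In 25 lists with a tested member there was no call, beside 0.534% of all genes called higher and 0.465% called lower. This held for 47 genes of S phase (median 0.00), 41 of G2 and mitosis (median 0.13), 66 cytosolic ribosomal proteins (median -0.02), 33 genes of MYC and ribosome biogenesis (median 0.07), 33 proteasome genes (median 0.07), 18 p53 targets (median 0.03), 23 genes of the BCL2 family and apoptosome (median 0.10) and 27 of cholesterol and fatty acid synthesis (median 0.06). Among 20 of these lists with 10 or more tested genes the medians lay between -0.07 and 0.31, the highest being the monocyte and macrophage genes. MAD2L1, a spindle checkpoint protein, was closest to a call among mitotic genes, at 0.59 (adjusted p = 0.063). DDIT4, an inhibitor of mTORC1 induced by stress, was at 1.003 (adjusted p = 0.095), with 9.97, 10.35 and 10.46 in the high-DEK libraries and 8.71, 9.28 and 9.77 in the low-DEK libraries. Interferon-stimulated genes had a median of 0.05 with 0 of 29 called. They were high in shEMPTY replicate 2, where IFI6 had 13.003 against 9.80 to 10.38 in the 6 shRNA libraries.

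Of the 86 called genes, 27 had another detected probe. These 34 further probes came from the same libraries, and 30 had the same direction, 25 of them with an unadjusted p under 0.05 (limma). Among these 30, only the other probes of RN7SK, IDH1 and VIM gave a larger difference than the probe called. Weaker ones included RCBTB2 (0.29 against 1.03), IL7R (0.54 against 1.05), GPR65 (0.46 against 0.90), BEX1 (-0.71 against -1.37) and SNX10 (0.10 against 0.70). Exceptions were both other probes of ARRB1, at 0.19 and 0.29 against -0.63 for the probe called, 1 of 3 other probes of CSTF3, at 0.21 against -0.81, and 1 of 2 of ACADVL, at 0.01 against -0.63.

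Since each hairpin had libraries in both groups, the difference could also be set against the hairpin label. In replicate numbers 1 and 3 shDEK14 was high and shDEK17 low, and in number 2 the reverse. For CTSG the log2 difference within replicate number was -1.92 in number 1, -2.62 in number 2 and -2.09 in number 3, and for SLC25A23 it was -1.31, -1.43 and -1.25. Other called genes were uneven, with -1.56, -1.80 and -0.38 for CCNA1, -1.64, -1.26 and -0.45 for TENT5C and 1.64, 0.43 and 1.05 for RNU1-3. With the hairpin label as a covariate 18 of the 86 genes were called, and RN7SK was not among them. A test of whether the difference depended on the hairpin label called 0 genes in limma (120 at an unadjusted p under 0.05). It also called 0 after background correction of the raw intensities with neqc. The genes of lowest p in this test were HNRNPCL2, DNAJC2 and ZNF106, at an adjusted p of 1.0. With 3 libraries per hairpin label, split 1 against 2, large differences could be missed. Both fits used the label, and whether it gives the hairpin that a library carried was not tested. If shDEK14 and shDEK17 had been exchanged in number 2, DEK level and hairpin would coincide, and neither fit could tell them apart.

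The shEMPTY libraries, which the grouping did not use, differed among themselves in DEK. Replicate 2 had low DEK and replicates 1 and 3 had high DEK. Replicate 2 lay beyond both others in the direction of the low-DEK libraries for 29 of the 86 genes (33.7%) and in the direction of the high-DEK libraries for 38 (44.2%). Over all genes tested these shares were 32.9% and 34.5%. With 1 library against 2 there is no test, and replicate 2 also stood apart in interferon genes. Of the 86 genes, 75 in shEMPTY replicate 1, 65 in replicate 2 and 68 in replicate 3 were closer to the low-DEK mean than to the high-DEK mean, against 60.1%, 54.5% and 50.2% of all genes. This included replicates 1 and 3, with as much DEK signal as the high-DEK libraries. All 3 high-DEK libraries lay beyond all 3 shEMPTY libraries for 36 of 46 higher and 40 of 40 lower genes, against 16.7% of all genes. All 3 low-DEK libraries lay beyond all shEMPTY libraries in the other direction for 22 of 86, against 8.19% of all genes. The last counts share the 6 libraries that picked the genes and are a description.

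The number of calls depended on which libraries were in the fit. Without shDEK14 replicate 1, a high-DEK library, 1 gene was called higher and 3 lower, and without shDEK14 replicate 2, a low-DEK library, 1 higher and 3 lower. The replicate number as a block also left 1 higher and 3 lower. MYBPH, CTSG, CFD and SLC25A23 were called in every one of these fits. Without shDEK17 replicate 2 there were 29 higher and 16 lower. Granule genes called lower numbered 2 without shDEK14 replicate 1 or 2 (CTSG and CFD) and 4 to 6 without any other single library.

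**Figure D5:**
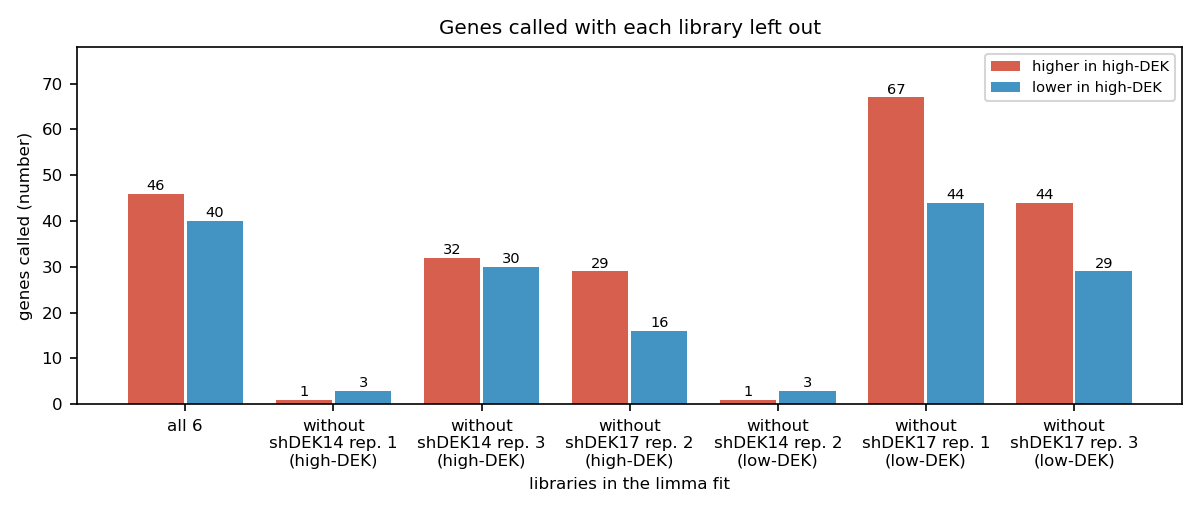
Number of genes called (vertical axis) higher (red) and lower (blue) in the high-DEK libraries with all 6 libraries and with each left out in turn (horizontal axis). Counts drop to 1 and 3 without shDEK14 replicate 1 or without shDEK14 replicate 2 and reach 67 and 44 without shDEK17 replicate 1.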

How the data were processed

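Gene expression in 9 U937 libraries was read on bead arrays (Illumina HumanHT-12 v4). The authors deposited raw average bead intensity for 47323 probes per array, without background subtraction, with a detection p-value against negative control beads. A further deposited table held the same intensity multiplied by 1 factor per array, to a mean of 406.2. The origin of the factor was not stated, and values of dim genes include background, which compresses their fold differences. Of the probes 30113 had 1 gene symbol, 8 several and 17202 none in the platform annotation, and 30074 were updated by gene identifier to RefSeq (GRCh38.p14).

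Here, log2 of the scaled intensity was used. Probes detected at p under 0.01 on 3 or more arrays were kept (14230, of which 3032 had no single symbol), and for 2156 genes with several kept probes the one of highest mean stood for the gene. DEK was left out of the fit. The 6 libraries were split at a raw DEK intensity of 1000 and compared in limma 3.58.1 (R 4.3.3; lmFit and eBayes, no covariate), with Benjamini-Hochberg adjustment over 8610 genes and a threshold of 0.05. The number of arrays limits the precision. A gene with no detected probe on any array of a group was given a bound. The script was tested on simulated data.

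Named genes were DEK, MYBPH, CTSG and CFD, the 12 of largest difference in each direction among called genes without overlap, up to 4 called members of each of 39 gene lists or the 2 of lowest p of a list with none, and the 3 of lowest p for the interaction. Other genes named were chosen after their values were seen. The groups, lists and rules were chosen with earlier results of these data known. The same-numbered libraries did not deviate together (r = -0.25, 0.19 and -0.48 for numbers 1, 2 and 3), so the number was not used as a pairing. Alternatives covered the background correction, normalization, probe filter, probe choice, covariates, weights, the methods' t-test and each library left out.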

Additional observations from a re-analysis of the deposited data

Results flagged for a closer look

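Probes without a single gene symbol were kept out of the gene comparison. Of 3032 such probes that were detected, 11 passed the same limma threshold (0.363%), 5 higher and 6 lower in the high-DEK libraries, a smaller share than among genes (0.534% higher and 0.465% lower). In the high-DEK libraries 4 of the 5 higher probes also lay above all 3 shEMPTY libraries, and 6 of the 6 lower ones below them. Among called genes this held for 36 of 46 higher and 40 of 40 lower, and among all genes for 16.7% in either direction. They are listed because no comparison above used them.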

How the results depend on the processing

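The 46 higher and 40 lower calls became 23 and 15 after neqc on the raw intensities, with 33 of the 86 genes in common, and 9 and 9 with the hairpin label as a covariate. Under the methods' t-test 0 higher and 0 lower genes were left after Benjamini-Hochberg adjustment, with 1023 genes at an unadjusted p under 0.05. With all 9 arrays in the fit 75 genes were higher, and array weights gave 452 and 356. The replicate block gave 1 higher, 3 lower and 2 granule genes. Without both shDEK14 replicate 3 and shDEK17 replicate 1, whose deviations correlated at r = 0.632 (chosen after seeing the data), 70 were higher and 57 lower. With 1 library left out in turn the higher calls ranged from 1 to 67, the lower from 3 to 44 and the granule genes called lower from 2 to 6. The 6 granule genes called lower became 11 with array weights and 0 with the t-test. The other alternatives stayed within 1.5 times of each count. No gene among the 86 changed direction, which leaving out a library could not have caused, since the groups did not overlap. Of 35 named called genes, 18 were called in every fit that tested them, apart from fits with a library left out, a block, the hairpin covariate or the t-test. With only probes detected on all 9 arrays, 28 of the 35 were called, 1 was not and the rest were not tested. With each library left out in turn, 4 of the 35 were called every time. The background left in the values limits the size of differences of dim genes, and 7 called genes not detected in 1 whole group have only a bound.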
